A study of Arabidopsis thaliana with 16 samples.

Results

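The 7 genes described here make, release and export the coumarins with which Arabidopsis thaliana roots mobilize iron. They are MYB72 (AT1G56160), F6'H1 (AT3G13610), COSY (AT1G28680), S8H (AT3G12900), CYP82C4 (AT4G31940), BGLU42 (AT5G36890) and PDR9 (AT3G53480), chosen by name from the pathway. They are 7 of the 33518 loci in the count files, and all 7 were among the 22304 loci that passed the filter on low counts. Poly(A) RNA came from roots of 6 d old seedlings grown on vertical plates of MS medium, in a study of how ethylene acts on root hairs through EIN3/EIL1 and RHD6/RSL1. The labels name no change in iron supply. Seedlings of each genotype received 10 ppm ethylene for 4 h or were left untreated. The genotypes were the quadruple mutant ein3eil1rhd6rsl1, the double mutant rhd6rsl1, which lacks the bHLH factors that start root hair formation, the double mutant ein3eil1, which lacks a pair of transcription factors at the end of the ethylene signalling chain, and the wild type Col-0. Each of the 8 groups had 2 biological replicates, so 16 libraries were compared. The labels give neither the alleles nor how many seedlings were pooled.

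Roots secrete coumarins when iron is poorly soluble, and these phenolic compounds chelate and reduce ferric iron outside the root. The skeleton is built from feruloyl-CoA, which F6'H1 hydroxylates at the ring and COSY helps to close into scopoletin. S8H hydroxylates scopoletin to fraxetin, and CYP82C4 hydroxylates fraxetin to sideretin. MYB72 is a transcription factor of the iron deficiency response, BGLU42 is a beta-glucosidase that frees scopoletin from its stored glucoside, and PDR9 (ABCG37) is a plasma membrane exporter of phenolics. In iron-starved roots, genes of this set are known to be induced downstream of the bHLH factor FIT.

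The sequences just upstream of S8H and CYP82C4 are shown because these consecutive hydroxylases moved in opposite directions with ethylene. That of F6'H1 is shown because it alone among the 7 held ATGTAC, the letters searched here as the EIN3 core. Each is the 250 bases before the annotated gene start in the RefSeq genome TAIR10.1, read 5′ to 3′ on the strand of the gene. All 3 windows lie outside annotated exons. Capitals mark matches, on either strand, to the E-box CANNTG, the EIN3 core ATGTAC and the MYB-type AC element ACCNANC; no 2 matches overlap here.
S8H, chr3:4104213-4104462, plus strand: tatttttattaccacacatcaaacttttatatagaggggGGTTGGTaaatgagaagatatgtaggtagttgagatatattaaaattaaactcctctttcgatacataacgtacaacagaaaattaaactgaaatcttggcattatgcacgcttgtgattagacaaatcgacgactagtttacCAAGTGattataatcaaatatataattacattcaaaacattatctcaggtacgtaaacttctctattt
CYP82C4, chr4:15451738-15451987, plus strand: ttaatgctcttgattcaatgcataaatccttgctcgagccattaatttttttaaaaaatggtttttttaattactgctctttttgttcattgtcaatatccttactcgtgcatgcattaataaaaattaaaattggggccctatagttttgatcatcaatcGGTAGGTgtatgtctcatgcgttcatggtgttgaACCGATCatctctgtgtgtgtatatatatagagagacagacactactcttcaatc
F6'H1, chr3:4449009-4449258, plus strand: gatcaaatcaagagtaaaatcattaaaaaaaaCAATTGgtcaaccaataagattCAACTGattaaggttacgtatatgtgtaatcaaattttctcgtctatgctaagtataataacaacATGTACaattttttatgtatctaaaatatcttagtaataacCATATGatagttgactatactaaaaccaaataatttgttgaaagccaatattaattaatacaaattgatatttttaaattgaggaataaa
In the S8H window the AC element starts 211 bases and the E-box 68 bases before the gene start. The CYP82C4 window has AC elements at 89 and 55 bases and no E-box. The F6'H1 window has E-boxes at 218, 196 and 90 bases and the EIN3 core at 131 bases. Among all 27443 promoters of the same length, 9.52% hold the EIN3 core, 55.3% an E-box and 27.8% an AC element. Of the 7 genes, 1 holds the EIN3 core, 3 an E-box and 4 an AC element. Among these 4 is COSY, whose 250 bases all lie in annotated exons. Windows in exons were not left out of either count. The G-box CACGTG, an E-box itself, is in 6.49% of all promoters and in 0 of these 7. These matches describe letters in a window and do not show binding. Only the listed letters were searched, so a window without ATGTAC may still hold another form of the EIN3 site.

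Libraries held about 33000000 to 45000000 assigned reads, and levels (CPM) are the reads of a locus per 1000000 reads assigned to loci, scaled by TMM. EIN3 transcripts had 28.7 to 41.6 CPM in the 8 libraries of ein3eil1 genotypes and 148 to 185 CPM in the others, and EIL1 had 12.0 to 29.7 CPM against 61.3 to 75.6 CPM. RHD6 and RSL1 transcripts overlapped between genotypes (RHD6 at 6.48 to 15.6 CPM in rhd6rsl1 genotypes and 14.2 to 24.2 CPM in the others), so transcript level does not check that label. The summed level of 7 root hair cell genes does. It was 1.34 to 10.9 CPM in 6 of the 8 libraries of rhd6rsl1 genotypes and 85.4 and 89.6 CPM in ethylene-treated rhd6rsl1, against 435 to 1430 CPM in the 8 libraries with RHD6/RSL1. Root genes were present in every library, with CASP1 at 165 to 314 CPM. Col-0_ethylene replicate 1 and ein3eil1rhd6rsl1_ethylene replicate 1 stood apart in 8 photosynthesis genes, with summed levels of 689 and 1069 CPM against 124 to 474 CPM elsewhere. The codes of the deposited files carry a letter, S or Z, with no stated meaning. Untreated rhd6rsl1, the untreated quadruple mutant and both ethylene-treated groups with intact RHD6/RSL1 carry S. Within any 1 genotype the ethylene effect therefore cannot be told apart from the letter. Within any 1 treatment the same holds for loss of RHD6/RSL1. Effects averaged over rhd6rsl1 and Col-0, or over both treatments, are balanced over the letters, and they lead the account below.

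The 7 genes differed widely in how much they varied between groups. The ratio of the highest to the lowest of the 8 group means, on the log scale, was 10.4 for S8H, 3.65 for MYB72, 2.98 for CYP82C4, 2.03 for BGLU42, 1.94 for F6'H1, 1.73 for PDR9 and 1.19 for COSY. The median range over all loci tested was 0.70 on the log2 scale, and COSY, at 0.26, was the only 1 of the 7 below it. MYB72, F6'H1, S8H and BGLU42 shared both extremes. On the log scale each was highest in untreated ein3eil1 and lowest in ethylene-treated rhd6rsl1. In mean CPM, MYB72 was as high in untreated Col-0 (5.56 CPM) as in untreated ein3eil1 (5.49 CPM), with overlapping replicates. CYP82C4 was instead highest in ethylene-treated Col-0 and lowest in the ethylene-treated quadruple mutant, and PDR9 was highest in untreated Col-0.

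**Figure D1:**
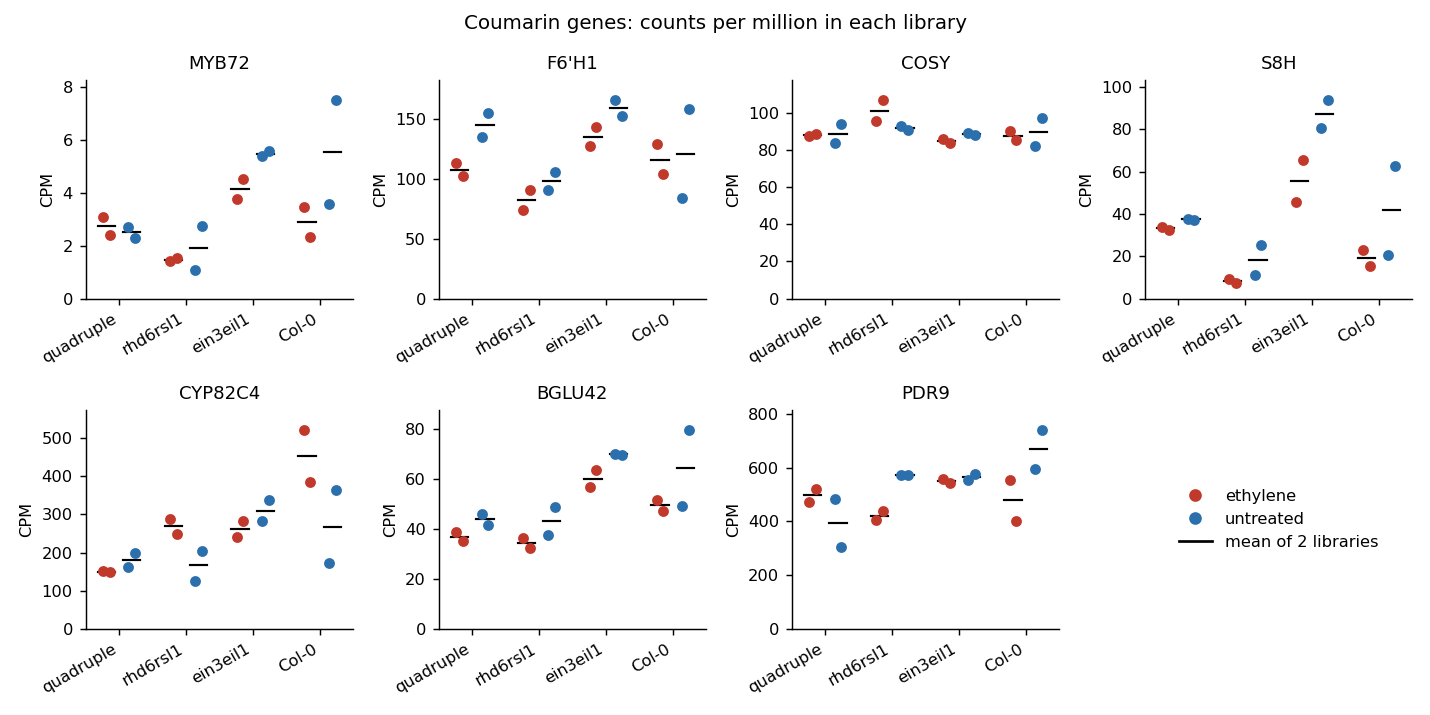
Levels in CPM of the 7 coumarin genes in each of the 16 libraries, with genotypes along the x axis and ethylene-treated (red) left of untreated (blue) libraries. Bars are means of 2 libraries; S8H spans 7.41 to 94.1 CPM, while COSY stays between 82.2 and 107 CPM.

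S8H, the fraxetin-forming hydroxylase, had 34.0 and 32.5 CPM in the ethylene-treated quadruple mutant and 37.8 and 37.1 CPM in the untreated one. In rhd6rsl1 it had 9.29 and 7.41 CPM with ethylene and 11.1 and 25.5 CPM without. In ein3eil1 it had 45.6 and 65.5 CPM with ethylene and 80.6 and 94.1 CPM without, and in Col-0 22.9 and 15.3 CPM with ethylene and 20.8 and 62.5 CPM without. Along the order of group means, untreated ein3eil1 was separate from its neighbour, and so was ethylene-treated rhd6rsl1 at the low end. Ethylene-treated ein3eil1, untreated Col-0 and the untreated quadruple mutant overlapped in turn. How often neighbouring groups separate over all loci was not counted.

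CYP82C4, the sideretin-forming hydroxylase, had 151 and 149 CPM in the ethylene-treated quadruple mutant and 162 and 200 CPM in the untreated one. In rhd6rsl1 it had 289 and 249 CPM with ethylene and 126 and 205 CPM without. In ein3eil1 it had 242 and 282 CPM with ethylene and 282 and 339 CPM without, and in Col-0 522 and 384 CPM with ethylene and 172 and 363 CPM without. Both ethylene-treated Col-0 libraries were above every other library of the series. The margin was 384 CPM against 363 CPM in untreated Col-0, which carries the other file letter. How often such a separation occurs over all loci was not counted.

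The untreated Col-0 replicates stood apart in most of these genes. In that group 5 of the 7 genes differed at least 1.5-fold between the replicates, all 5 higher in replicate 2. Of all loci tested, 7.84% differed that much there, made up of 3.83% of all loci with replicate 2 higher and 4.01% with replicate 1 higher. S8H differed 3-fold, CYP82C4 2.11-fold, MYB72 2.08-fold, F6'H1 1.88-fold and BGLU42 1.62-fold. Of 22 genes of iron uptake and its regulation, 10 differed at least 1.5-fold in the same 2 libraries, again all higher in replicate 2. In untreated rhd6rsl1, MYB72, S8H and CYP82C4 differed at least 1.5-fold, all higher in replicate 2, against 8.17% of all loci. In the untreated quadruple mutant PDR9 was 1.6-fold higher in replicate 1, where 9.76% of all loci differed at least 1.5-fold. In the other 5 groups 0 of the 7 genes differed that much, where 7.7% to 10% of all loci did, so 0 is near the background. In ethylene-treated Col-0, S8H (22.9 and 15.3 CPM) and MYB72 (1.48-fold) lay just below the limit, both higher in replicate 1.

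The replicate differences of some genes moved together. Over the 8 pairs of replicates, the log2 differences of S8H correlated with those of CYP82C4 at r = 0.96, with BGLU42 at 0.96 and with MYB72 at 0.92. Over the 8 group means, S8H and CYP82C4 correlated at r = 0.01, S8H and BGLU42 at 0.77 and S8H and MYB72 at 0.86. These are descriptions over 8 points that share their libraries. S8H and CYP82C4 thus shared their spread between replicates of a group but not their order across groups. For both genes the widest replicate differences were those of untreated Col-0 and untreated rhd6rsl1. How often other pairs of loci correlate this strongly between replicates was not counted.

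**Figure D2:**
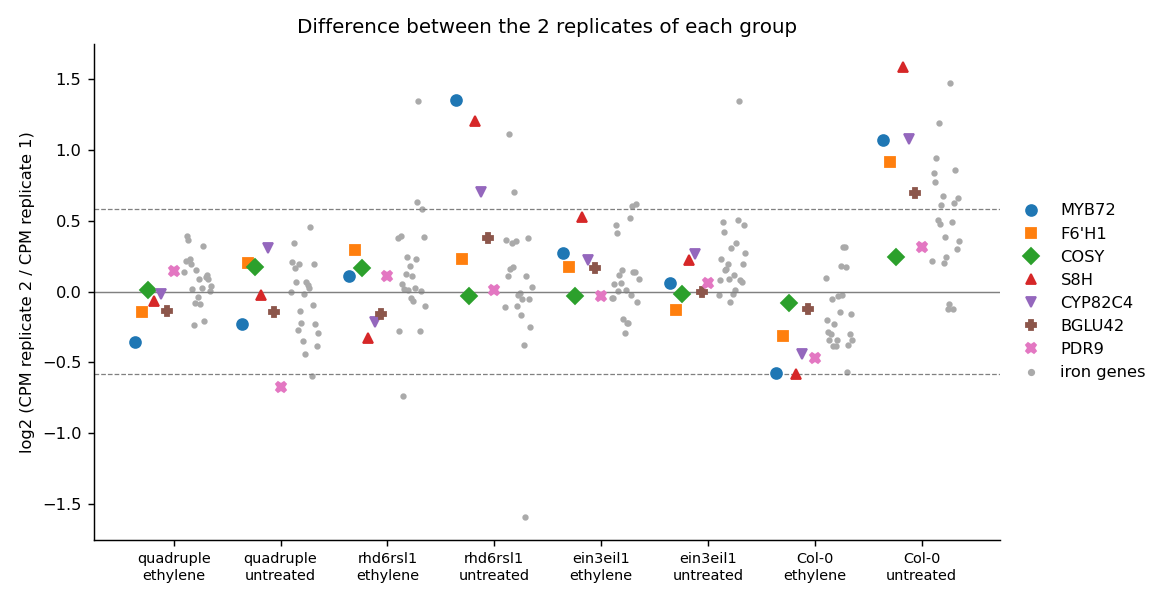
Log2 ratio of replicate 2 to replicate 1 in each group for the 7 coumarin genes (coloured) and up to 22 iron genes (grey dots; a gene with no read in a library has no dot). Dashed lines mark 1.5-fold; in untreated Col-0, 5 coumarin genes lie above the upper line.

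With EIN3/EIL1 present, ethylene lowered S8H, PDR9 and BGLU42 and raised CYP82C4. Averaged over rhd6rsl1 and Col-0, S8H changed by −1.13 ± 0.28 log2 units (SE; adjusted p = 0.0036 from edgeR's quasi-likelihood test, as for all changes here), PDR9 by −0.46 ± 0.12 (adjusted p = 0.0053) and BGLU42 by −0.35 ± 0.12 (adjusted p = 0.023). CYP82C4 changed by 0.73 ± 0.18 (adjusted p = 0.0041). MYB72 missed the threshold of 0.05 at −0.66 ± 0.26 (adjusted p = 0.0524), and so did F6'H1 at −0.15 ± 0.14 and COSY at 0.054 ± 0.065. In this contrast 41.3% of all loci were called, 18.9% higher and 22.4% lower, so 4 called of 7 is not far from the background. Without Col-0_untreated replicate 2 the change of S8H was −0.62 ± 0.22 (adjusted p = 0.038) and that of BGLU42 −0.15 ± 0.09 (adjusted p = 0.22). BGLU42 also lost its call without rhd6rsl1_untreated replicate 2 (adjusted p = 0.14), Col-0_ethylene replicate 2 (0.097) or rhd6rsl1_ethylene replicate 2 (0.12). S8H, CYP82C4 and PDR9 kept theirs in all 23 alternatives.

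PDR9, the exporter, had 406 and 437 CPM in ethylene-treated rhd6rsl1 and 571 and 574 CPM in untreated rhd6rsl1. In Col-0 it had 555 and 401 CPM with ethylene, against 596 and 741 CPM without. Neither genotype's ranges overlapped between treatments, a comparison that crosses the file letters. In Col-0 the nearest libraries had 555 CPM with ethylene and 596 CPM without. How often such a separation occurs over all loci was not counted, so it is only a description. In the quadruple mutant PDR9 had 472 and 521 CPM with ethylene and 485 and 304 CPM without, and in ein3eil1 556 and 543 CPM with ethylene and 554 and 578 CPM without. In both of those genotypes the ranges overlapped.

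Within single genotypes, where treatment and file letter cannot be told apart, the calls rested on few libraries. In rhd6rsl1, S8H changed by −1.13 ± 0.41 log2 units (adjusted p = 0.039), CYP82C4 by 0.70 ± 0.26 (adjusted p = 0.042) and PDR9 by −0.44 ± 0.17 (adjusted p = 0.0496), where 39.5% of loci were called. In Col-0, S8H changed by −1.13 ± 0.38 (adjusted p = 0.033), MYB72 by −0.95 ± 0.34 (adjusted p = 0.0457), PDR9 by −0.48 ± 0.17 (adjusted p = 0.042) and CYP82C4 by 0.76 ± 0.26 (adjusted p = 0.036), where 29.6% of loci were called. The shares of the 7 called in this fit, 3 and 4 genes, were close to the background in rhd6rsl1 and above the background in Col-0. The share in Col-0 depended on the setting, with 5 called with no filter and 0 with the groups of the contrast only. In rhd6rsl1, 4 were called under either setting. Without Col-0_untreated replicate 2 the Col-0 change of S8H was −0.13 ± 0.33 (adjusted p = 0.84) that of MYB72 −0.32 ± 0.37 (adjusted p = 0.61), that of PDR9 −0.32 ± 0.20 (adjusted p = 0.30) and that of CYP82C4 1.40 ± 0.25 (adjusted p = 0.00070). Without Col-0_untreated replicate 1, CYP82C4 changed by 0.33 ± 0.23 (adjusted p = 0.37), and without Col-0_ethylene replicate 1 by 0.53 ± 0.30 (adjusted p = 0.23). Without Col-0_ethylene replicate 2 the adjusted p was 0.39 for PDR9, 0.28 for MYB72 and 0.22 for S8H. Without rhd6rsl1_untreated replicate 2 the rhd6rsl1 change of S8H was −0.41 ± 0.45 (adjusted p = 0.54), and without replicate 1 that of CYP82C4 was 0.43 ± 0.30 (adjusted p = 0.30). In rhd6rsl1 the calls held in 8 of 23 alternatives for PDR9, 15 for S8H and 17 for CYP82C4. DESeq2 called 0 of the 7 in rhd6rsl1 and 1 in Col-0.

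Without EIN3/EIL1, edgeR called 0 of the 7 genes for ethylene averaged over the quadruple mutant and ein3eil1, where 7.89% of all loci were called. F6'H1, at −0.34 ± 0.14 log2 units, was the only gene of the set with an unadjusted p below 0.05 in edgeR's test, and DESeq2 also called 0. The count depended on the setting: with no filter 4 of the 7 were called, and with the groups of the contrast only 2. S8H changed by −0.41 ± 0.26 and CYP82C4 by −0.26 ± 0.18. In the quadruple mutant alone 23.9% of loci were called and in ein3eil1 alone 0.623%, with 0 of the 7 in either. Unadjusted p in edgeR's test was below 0.05 for F6'H1 in the quadruple mutant (0.043) and for 0 of the 7 in ein3eil1. DESeq2 called 0 in both. With no filter 3 were called in the quadruple mutant and 1 in ein3eil1, and with the contrast's groups only 1 in each.

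The difference between the responses was called for CYP82C4 and PDR9. Averaged over both pairs of genotypes, the response with EIN3/EIL1 minus that without was 0.99 ± 0.26 log2 units for CYP82C4 (adjusted p = 0.0088) and −0.61 ± 0.17 for PDR9 (adjusted p = 0.014), where 26.5% of all loci were called, a share close to that of the 7 genes. Both calls held in all 23 alternatives, with values of 0.80 to 1.32 for CYP82C4 and −0.78 to −0.46 for PDR9. For S8H the difference was −0.71 ± 0.38 (adjusted p = 0.18), so its larger fall with EIN3/EIL1 present was not shown to differ from its response without. In the rhd6rsl1 pair alone, where 17.8% of loci were called, the difference for PDR9 was −0.78 ± 0.24 (adjusted p = 0.035) and that for CYP82C4 0.97 ± 0.37 (adjusted p = 0.079). In the Col-0 pair 12.2% of loci and 0 of the 7 genes were called. CYP82C4, at 1.00 ± 0.37 (unadjusted p = 0.014, adjusted p = 0.092), was the only one with an unadjusted p below 0.05 in edgeR's test. DESeq2 called 0, and 3 were called with no filter. Leaving out Col-0_untreated replicate 2, CYP82C4 was called at 1.65 ± 0.31 (adjusted p = 0.0024) and F6'H1 at 0.72 ± 0.21 (adjusted p = 0.039), and without replicate 1 CYP82C4 was at 0.58 ± 0.30 (adjusted p = 0.31).

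**Figure D3:**
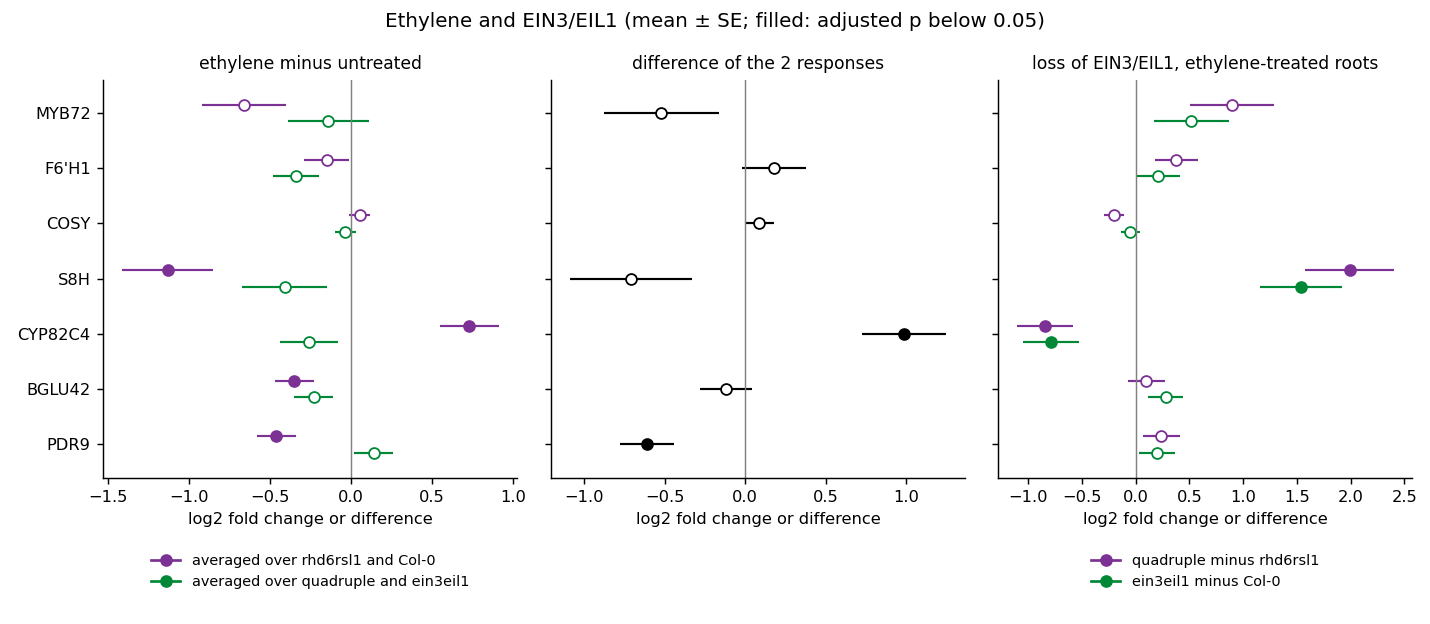
Log2 fold changes and their differences (x axes) for the 7 genes with standard errors; filled points were called at an adjusted p below 0.05. The left panel gives the ethylene response with and without EIN3/EIL1, the middle panel the difference of these responses, and the right panel the loss of EIN3/EIL1 in ethylene-treated roots, where S8H lies at 1.99 and 1.54 and CYP82C4 at −0.84 and −0.79.

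In ethylene-treated roots, loss of EIN3/EIL1 raised S8H and lowered CYP82C4. S8H was 3.98-fold higher in the quadruple mutant than in rhd6rsl1 (1.99 ± 0.41 log2 units, adjusted p = 0.0011) and 2.92-fold higher in ein3eil1 than in Col-0 (1.54 ± 0.38, adjusted p = 0.0054). CYP82C4 changed by −0.84 ± 0.26 (adjusted p = 0.021) in the quadruple mutant and by −0.79 ± 0.26 (adjusted p = 0.033) in ein3eil1. These contrasts each lie within 1 file letter, and 31.0% and 25.3% of all loci were called in them, close to the share of the 7 genes. Markers of other cells moved in the same contrasts, and their part in the result was not tested. The 7 root hair cell genes were all lower, with medians of −4.13 log2 units in the quadruple mutant and −1.38 in ein3eil1. Of the 8 photosynthesis genes, 7 were higher in the quadruple mutant and 4 lower in ein3eil1, and of the 5 endodermis genes 3 and 1 were higher. The S8H call in the quadruple mutant held in all 23 alternatives. That in ein3eil1 was lost without Col-0_ethylene replicate 2 (adjusted p = 0.069) or ein3eil1_ethylene replicate 2 (adjusted p = 0.061). The CYP82C4 call in ein3eil1 was lost without Col-0_ethylene replicate 1 (adjusted p = 0.23), one of the libraries high in photosynthesis transcripts, without either ein3eil1_ethylene library (adjusted p = 0.21 and 0.087) and in DESeq2 (adjusted p = 0.089). That in the quadruple mutant was lost without rhd6rsl1_ethylene replicate 1 (adjusted p = 0.093) or either of its own libraries (adjusted p = 0.057 and 0.066). In untreated roots edgeR called 0 of the 7 genes for loss of EIN3/EIL1 on either background, where 4.33% and 5.63% of loci were called, and DESeq2 also called 0. With no filter 3 were called in the quadruple mutant and 2 in ein3eil1, and with the contrast's groups only 1 in each. S8H again lay higher there, at 1.04 ± 0.38 (adjusted p = 0.14) in the quadruple mutant against rhd6rsl1 and 1.07 ± 0.36 (adjusted p = 0.11) in ein3eil1 against Col-0. Unadjusted p was below 0.05 for F6'H1, S8H and PDR9 in the first and for S8H in the second. The second rests on 1 library: without Col-0_untreated replicate 2, S8H was called at 2.09 ± 0.35 (adjusted p = 0.0030) and F6'H1 at 0.95 ± 0.16 (adjusted p = 0.0038), and without replicate 1 S8H was at 0.50 ± 0.32 (adjusted p = 0.61).

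Loss of RHD6/RSL1 lowered MYB72, S8H, CYP82C4 and BGLU42, with and without EIN3/EIL1. In rhd6rsl1 against Col-0, averaged over treatments, MYB72 changed by −1.26 ± 0.26 log2 units (adjusted p = 0.0019), S8H by −1.19 ± 0.28 (adjusted p = 0.0051), CYP82C4 by −0.72 ± 0.18 (adjusted p = 0.0086) and BGLU42 by −0.55 ± 0.12 (adjusted p = 0.0022). In the quadruple mutant against ein3eil1 the changes were −0.87 ± 0.25 for MYB72 (adjusted p = 0.018), −0.98 ± 0.26 for S8H (adjusted p = 0.012), −0.79 ± 0.18 for CYP82C4 (adjusted p = 0.0051) and −0.69 ± 0.12 for BGLU42 (adjusted p = 0.00036). Of all loci, 11.5% were called lower in the first contrast and 10.8% in the second, of 22.3% and 22.6% called in either direction. F6'H1 changed by −0.40 ± 0.14 (adjusted p = 0.0508) and −0.23 ± 0.14 (adjusted p = 0.26), PDR9 by −0.20 ± 0.12 and −0.33 ± 0.12 (adjusted p = 0.26 and 0.057), and COSY by 0.12 ± 0.065 and 0.029 ± 0.065. The median change of the 7 genes was −0.55 and −0.69, against 0.001 and 0.003 over all loci.

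MYB72, the regulator, had 3.07 and 2.40 CPM in the ethylene-treated quadruple mutant and 2.70 and 2.30 CPM in the untreated one, against 3.75 and 4.53 CPM in ethylene-treated ein3eil1 and 5.38 and 5.60 CPM in untreated ein3eil1. It had 1.41 and 1.52 CPM in ethylene-treated rhd6rsl1 and 1.08 and 2.75 CPM in untreated rhd6rsl1, against 3.45 and 2.32 CPM in ethylene-treated Col-0 and 3.59 and 7.53 CPM in untreated Col-0. In each of these 4 pairs the mutant without RHD6/RSL1 lay below its counterpart with no overlap. All 4 pairs cross the file letters S and Z, and how often such a separation occurs over all loci was not counted. BGLU42, the glucosidase, had 38.7 and 35.1 CPM in the ethylene-treated quadruple mutant against 56.7 and 63.6 CPM in ethylene-treated ein3eil1, and 45.9 and 41.6 CPM in the untreated quadruple mutant against 69.8 and 69.7 CPM in untreated ein3eil1. It had 36.3 and 32.5 CPM in ethylene-treated rhd6rsl1 against 51.6 and 47.3 CPM in ethylene-treated Col-0, and 37.5 and 48.7 CPM in untreated rhd6rsl1 against 49.1 and 79.6 CPM in untreated Col-0. Again no pair overlapped, although untreated rhd6rsl1 reached 48.7 CPM against 49.1 CPM in untreated Col-0. These pairs cross the file letters as well, and the share of all loci separated in this way was not counted for BGLU42 either.

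Without Col-0_untreated replicate 2 the rhd6rsl1 changes were −0.68 ± 0.22 for S8H (adjusted p = 0.045), −0.35 ± 0.09 for BGLU42 (adjusted p = 0.013) and −0.40 ± 0.15 for CYP82C4 (adjusted p = 0.085). The CYP82C4 call was also lost without rhd6rsl1_untreated replicate 1 (adjusted p = 0.068) or rhd6rsl1_ethylene replicate 2 (adjusted p = 0.0507). In the quadruple mutant S8H lost its call without ein3eil1_ethylene replicate 2 (adjusted p = 0.063). MYB72 there lost it without ein3eil1_ethylene replicate 2, ein3eil1rhd6rsl1_untreated replicate 2 or ein3eil1rhd6rsl1_ethylene replicate 2 (adjusted p = 0.070, 0.057 and 0.062). The summed root hair cell genes fell with these genes, at the levels given above, with 7 of 7 called lower in both contrasts, and their part in the result was not tested. They were also higher with ethylene averaged over rhd6rsl1 and Col-0, 7 of 7, and their part there was not tested either. Of 5 endodermis genes, 3 were higher in rhd6rsl1 than in Col-0 and 5 higher in the quadruple mutant than in ein3eil1. In whole roots, fewer cells of a type and less RNA per cell cannot be told apart.

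Genes of iron uptake and its regulation fell with the coumarin genes in rhd6rsl1. Of 22 such genes, 15 were lower and 2 higher in rhd6rsl1 than in Col-0, with a median change of −0.67 log2 units, where 11.5% of all loci were called lower and 22.3% in either direction. The largest changes were those of IMA3, at −4.07 ± 0.62 (adjusted p = 0.00011), IRT2, at −2.95 ± 0.14 (adjusted p = 2.2e-11), and IMA1, at −2.49 ± 0.29 (adjusted p = 5.7e-06). IMA1 and IMA3 encode small peptides that promote the iron deficiency response and IRT2 an iron transporter of the root epidermis. IMA3 was near the floor of detection in rhd6rsl1, with 0.111 and 0.282 CPM with ethylene and 0 and 0.0518 CPM without, so its fitted change depends on the prior count. FIT was 1 of the 2 higher genes, at 0.45 ± 0.076 (adjusted p = 0.00028). In the quadruple mutant against ein3eil1, 8 of the 22 were lower and 1 higher, with a median of −0.34, where 10.8% of all loci were called lower and 22.6% in either direction. Without ein3eil1_untreated replicate 2, 4 were lower there, and without ein3eil1_ethylene replicate 2, 5.

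**Figure D4:**
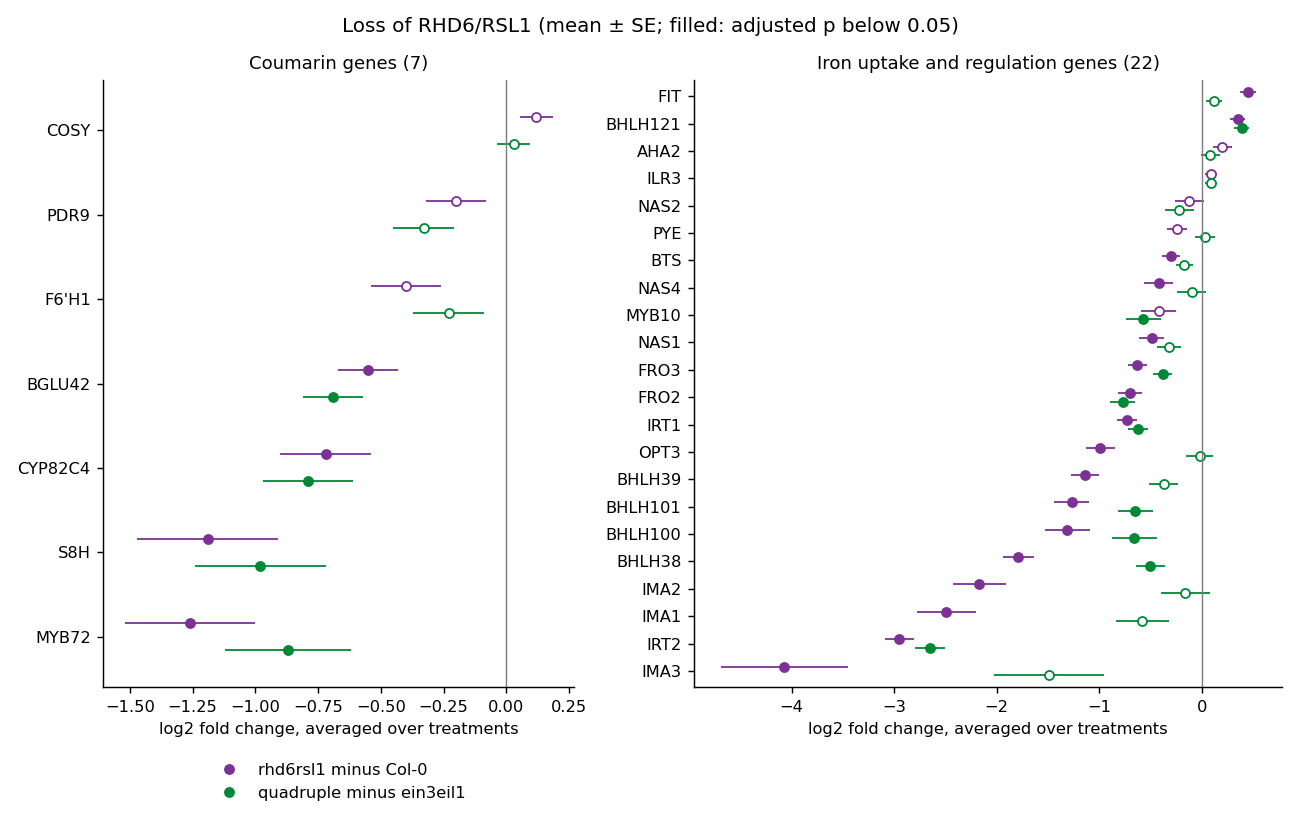
Log2 fold changes with standard errors on loss of RHD6/RSL1, averaged over treatments, for the 7 coumarin genes (left) and 22 iron genes (right), in rhd6rsl1 against Col-0 and in the quadruple mutant against ein3eil1. Filled points were called at an adjusted p below 0.05; 4 coumarin genes are filled and below 0 in both contrasts.

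With ethylene averaged over rhd6rsl1 and Col-0, 7 of the 22 iron genes were higher and 2 lower. This share is at the background of that contrast, where 41.3% of all loci were called, 18.9% higher and 22.4% lower. The largest changes were those of IRT2, at 1.19 ± 0.14 (adjusted p = 1.7e-06), BHLH101, at −0.75 ± 0.17 (adjusted p = 0.0020), and OPT3, a phloem iron transporter, at 0.73 ± 0.14 (adjusted p = 0.00032). BHLH101 is a bHLH partner of FIT. Without Col-0_untreated replicate 2, 11 of the 22 were higher and 1 lower. Without Col-0_ethylene replicate 1, 4 were lower, and without rhd6rsl1_untreated replicate 2, 1 was lower. The difference between the responses with and without EIN3/EIL1 was called for 3 of the 22, a smaller share than the 26.5% of all loci. These were IRT2 at 0.96 ± 0.20 (adjusted p = 0.0017), BHLH101 at −0.84 ± 0.24 (adjusted p = 0.015) and NAS2, a nicotianamine synthase, at 0.63 ± 0.19 (adjusted p = 0.022). The BHLH101 call was lost without rhd6rsl1_ethylene replicate 2 (adjusted p = 0.056) or Col-0_untreated replicate 2 (adjusted p = 0.0527), and that of NAS2 without rhd6rsl1_untreated replicate 1, ein3eil1_ethylene replicate 1 or ein3eil1rhd6rsl1_untreated replicate 2. Without Col-0_untreated replicate 2, 6 of the 22 differed towards higher and 0 towards lower. IRT2 had 11.4 and 13.5 CPM in ethylene-treated rhd6rsl1 and 3.30 and 5.37 CPM in untreated rhd6rsl1, against 82.1 and 69.9 CPM in ethylene-treated Col-0 and 33.3 and 50.9 CPM in untreated Col-0.

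F6'H1, at the entry of the pathway, had 113 and 102 CPM in the ethylene-treated quadruple mutant and 135 and 155 CPM in the untreated one. In rhd6rsl1 it had 74.0 and 90.7 CPM with ethylene and 90.3 and 106 CPM without. In ein3eil1 it had 127 and 143 CPM with ethylene and 166 and 152 CPM without, and in Col-0 129 and 104 CPM with ethylene and 83.9 and 158 CPM without. Along the order of its 8 group means, each group overlapped the next. COSY had 95.6 and 107 CPM in ethylene-treated rhd6rsl1, and the other 14 libraries lay between 82.2 and 97.1 CPM.

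F6'H2 (AT1G55290), the second feruloyl-CoA hydroxylase gene, behaved unlike F6'H1. It had 0.029 and 0 CPM in the ethylene-treated quadruple mutant, a single read, and no read in the untreated one. In rhd6rsl1 it had 1.58 and 1.49 CPM with ethylene and no read without. In ein3eil1 it had 9.20 and 7.65 CPM with ethylene and 6.42 and 6.21 CPM without, and in Col-0 18.8 and 16.2 CPM with ethylene and 8.85 and 10.0 CPM without. Against a floor of 3 reads over a group, it was at least 250-fold lower in untreated rhd6rsl1 than in untreated Col-0 and at least 178-fold lower in the untreated quadruple mutant than in untreated ein3eil1. With ethylene it was at least 40.7-fold higher in rhd6rsl1 than in untreated rhd6rsl1, and in Col-0 it changed by 0.89 ± 0.16 log2 units (adjusted p = 0.00047). The floors cover counting error only, and each of these comparisons crosses the file letters S and Z. In fits balanced over the letters F6'H2 was called lower without RHD6/RSL1 on both backgrounds. It was called higher with ethylene averaged over rhd6rsl1 and Col-0. No size is given from these fits, because each includes a group without reads. F6'H2 was thus without reads in 4 libraries in which F6'H1 had 90.3 to 155 CPM.

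Root beta-glucosidases that act on scopolin split by member. BGLU21 (AT1G66270) was lower without RHD6/RSL1, by −1.40 ± 0.072 log2 units in rhd6rsl1 against Col-0 (adjusted p = 8.2e-11) and by −1.61 ± 0.073 in the quadruple mutant against ein3eil1 (adjusted p = 1.6e-11). BGLU22 (AT1G66280) was higher, by 0.53 ± 0.066 (adjusted p = 1e-05) and 0.81 ± 0.066 (adjusted p = 6.3e-08), as was BGLU23 (AT3G09260), by 0.49 ± 0.077 (adjusted p = 0.00013) and 0.55 ± 0.077 (adjusted p = 4.7e-05). With ethylene, averaged over rhd6rsl1 and Col-0, BGLU22 fell to 664 and 593 CPM in rhd6rsl1, against 1272 and 1360 CPM in untreated rhd6rsl1, and to 385 and 448 CPM in Col-0, against 968 and 925 CPM in untreated Col-0 (−1.13 ± 0.067, adjusted p = 3.8e-10). BGLU21 changed by −0.51 ± 0.071 (adjusted p = 1.7e-05) and BGLU23 by −0.18 ± 0.077 (adjusted p = 0.070). The difference between the responses with and without EIN3/EIL1 was −1.02 ± 0.093 for BGLU22 (adjusted p = 2.6e-07). It was not called for BGLU21 (−0.27 ± 0.1, adjusted p = 0.061) or BGLU23 (−0.23 ± 0.11, adjusted p = 0.13). BGLU21 was also called lower with ethylene averaged over the genotypes without EIN3/EIL1 (−0.24 ± 0.071, adjusted p = 0.0455). BGLU21 and BGLU22 are neighbouring copies of similar sequence, and reads shared between them are uncertain.

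UGT71C1 (AT2G29750), a glucosyltransferase of phenylpropanoids, followed BGLU22 in its ethylene response. It had 67.0 and 77.5 CPM in ethylene-treated rhd6rsl1 and 145 and 141 CPM in untreated rhd6rsl1. In Col-0 it had 76.2 and 68.0 CPM with ethylene, against 133 and 131 CPM without. The averaged change was −0.93 ± 0.073 log2 units (adjusted p = 1.7e-08), and the difference to the response without EIN3/EIL1 was −0.98 ± 0.10 (adjusted p = 1.4e-06). It was not called on loss of RHD6/RSL1 (0.059 ± 0.073 and 0.15 ± 0.072). CYP82C2 and CYP82C3, the relatives of CYP82C4, did not pass the filter on low counts and had at most 0.711 CPM in any library.

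**Figure D5:**
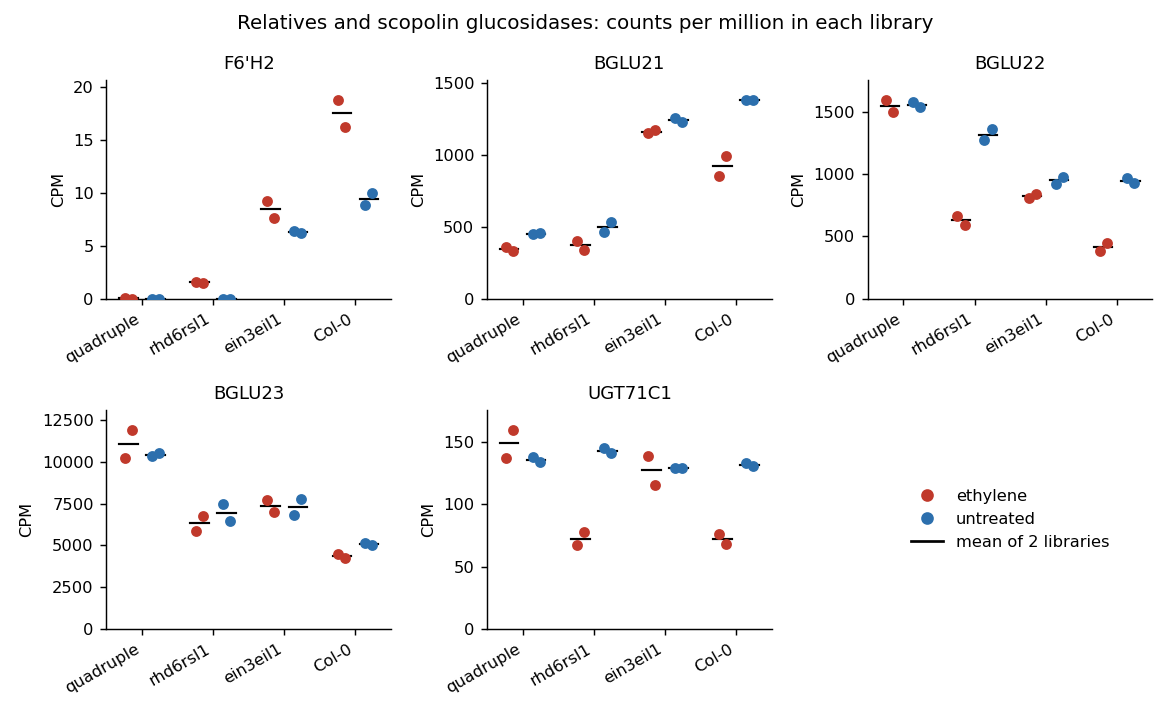
Levels in CPM of F6'H2, BGLU21, BGLU22, BGLU23 and UGT71C1 in each library, with genotypes along the x axis and ethylene-treated (red) left of untreated (blue) libraries; bars are means of 2 libraries. F6'H2 is at or near 0 in the quadruple mutant and in untreated rhd6rsl1, and UGT71C1 lies at 67.0 to 77.5 CPM in ethylene-treated rhd6rsl1 and Col-0 and at 116 CPM or more elsewhere.

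Of 13 genes that lead from phenylalanine to feruloyl-CoA, the substrate of F6'H1, 4 were higher and 6 lower with ethylene averaged over rhd6rsl1 and Col-0, where 18.9% of all loci were called higher and 22.4% lower. The largest changes were those of PAL3, at 2.71 ± 0.38 log2 units (adjusted p = 1.7e-05), COMT1, at 0.99 ± 0.072 (adjusted p = 5.3e-09), and PAL4, at −0.76 ± 0.10 (adjusted p = 1.5e-05). PAL3 and PAL4 encode phenylalanine ammonia-lyases and COMT1 an O-methyltransferase. PAL3 stayed at or below 2.08 CPM. COMT1 had 822 and 996 CPM in ethylene-treated rhd6rsl1 and 402 and 384 CPM in untreated rhd6rsl1, against 644 and 575 CPM in ethylene-treated Col-0 and 345 and 371 CPM in untreated Col-0. The difference between the responses with and without EIN3/EIL1 was called for 4 of the 13, a share near the 26.5% of all loci, among them COMT1 (0.95 ± 0.10, adjusted p = 1.6e-06), PAL4 (−0.87 ± 0.15, adjusted p = 0.00024) and CSE, a caffeoyl shikimate esterase (0.40 ± 0.099, adjusted p = 0.0065). Without rhd6rsl1_ethylene replicate 1, 3 of the 13 were lower with ethylene. On loss of RHD6/RSL1 in rhd6rsl1, COMT1 alone of the 13 was called (0.36 ± 0.071, adjusted p = 0.0014). Against ein3eil1, the quadruple mutant had 3 called, all higher: PAL3 (1.54 ± 0.52, adjusted p = 0.043), COMT1 (0.23 ± 0.071, adjusted p = 0.026) and CCOAOMT1, another O-methyltransferase (0.19 ± 0.064, adjusted p = 0.045). The first share is below the 22.3% of all loci called in that contrast, and the second is close to the 22.6% called in its own.

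Among 7314 other loci whose group means spanned at least 1 log2 unit, those most like each coumarin gene over the 8 group means correlated at r = 0.924 to 0.985, 3 for each gene. For each gene these are the highest of 7314 values over 8 points, and COSY, the gene that varied least, also reached 0.961. Whether such values exceed those of unrelated loci was not tested, so the likeness is a description only. Only the loci above 1 CPM in every library are named, a limit set after their values were seen. COSY and CYP82C4 had none. Among them, PDR9 was most like FRO5, of the ferric reductase family (r = 0.96; 89.3 to 261 CPM), and CPK16, a calcium-dependent kinase (0.925). MYB72 was most like AT1G11160 (0.972) and CYP81F3, a cytochrome P450 (0.969), S8H was most like HEMA3 (0.977) and AT5G41460 (0.971), F6'H1 most like AT3G15680 (0.973), and BGLU42 like ATMYC1 (0.973).

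Overlapping annotation limits 3 of the 7 genes, since the sources used here do not say whether reads were counted by strand. COSY shares 1455 bases with the antisense lncRNA locus AT1G28685, which had 26.7 to 38.4 CPM. MYB72 shares 829 bases with the antisense lncRNA locus AT1G56165, which had 0.887 to 3.44 CPM, a level close to that of MYB72 itself. F6'H1 shares 67 bases with PUT4, at 6.81 to 14.6 CPM. Within the shared bases, reads of a gene and its antisense partner cannot be told apart unless they were counted by strand. For F6'H1 these are 67 of 1553 bases.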

How the data were processed

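The deposited files hold raw read counts per transcript model, 1 file per library and 39640 models each; per the submitters' processing notes, the alignment used BWA 0.7.7 and the build was TAIR10. The sources used here do not say whether counting used strand or what happened to reads shared between copies. Counts were summed over models to 33518 loci and not otherwise changed; levels are CPM computed from these counts. Libraries held about 33000000 to 45000000 reads, and each sum equalled the total in its file header. All 16 libraries were fitted together with 8 group means by edgeR 4.0.16 (R 4.3.3; TMM, filterByExpr, quasi-likelihood F test), p-values were adjusted over 22304 loci by Benjamini-Hochberg, and the threshold for a call was an adjusted p of 0.05. The SE is the absolute log2 fold change over the root of F; the fit was tested on simulated data for ethylene in Col-0. Alternatives were DESeq2 1.42.0, its size factors, no filter, a replicate block, the first transcript model, the groups of the contrast only, 2 libraries left out together, and each library left out. The series design calls the replicates biological; where cultures were not separate, p-values measure only the spread between these samples.

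The 7 genes and the lists (7 relatives and scopolin glucosidases, 22 iron genes, 13 phenylpropanoid genes, marker genes) were chosen with earlier results of these data known. Members and relatives are always named. Of the iron and phenylpropanoid lists, the 3 largest called changes are named for ethylene averaged over rhd6rsl1 and Col-0, for the averaged difference of responses and for rhd6rsl1 against Col-0. FIT was named after its values were seen. Likeness is the Pearson r of log2 CPM (prior count 2) over group means. Replicate numbers do not pair the samples.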

Additional observations from a re-analysis of the deposited data

Results flagged for a closer look

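For 2 genes the ethylene response differed between genotypes with and without EIN3/EIL1 by edgeR's test of the difference itself. For CYP82C4 the averaged difference was 0.99 ± 0.26 log2 units (SE; adjusted p = 0.0088), with a response of 0.73 ± 0.18 with EIN3/EIL1 and −0.26 ± 0.18 without. For PDR9 it was −0.61 ± 0.17 (adjusted p = 0.014), with a response of −0.46 ± 0.12 with EIN3/EIL1 and 0.14 ± 0.12 without. In rhd6rsl1 and the quadruple mutant alone the difference for PDR9 was −0.78 ± 0.24 (adjusted p = 0.035), a call that held in 15 of 23 alternatives. In that quadruple mutant the untreated libraries differed 1.6-fold in PDR9.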

How the results depend on the processing

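Counts of the 7 genes called moved in most comparisons. With ethylene in Col-0, 4 were called, 1 by DESeq2, 0 with the groups of the contrast only and 1 to 4 with a library left out. In rhd6rsl1 it was 3, 0 by DESeq2 and 0 to 4 with a library left out. In the quadruple mutant it was 0, 3 with no filter, 1 with the contrast's groups only and 0 to 1 with a library left out. In ein3eil1 it was 0, 1 with no filter, 1 with the contrast's groups only and 0 with a library left out. Averaged over the genotypes with EIN3/EIL1 it was 4 (3 to 6 with a library left out). Averaged over those without it was 0, 4 with no filter, 2 with the contrast's groups only and 0 to 1 with a library left out. For ein3eil1 against Col-0 it was 0 untreated (2 with no filter, 1 with the contrast's groups only, 0 to 2 with a library left out) and 2 with ethylene (1 by DESeq2, 1 without both photosynthesis-high libraries, 0 to 2 with a library left out). For the quadruple mutant against rhd6rsl1 it was 0 untreated (3 with no filter, 1 without both photosynthesis-high libraries, 1 with the contrast's groups only, 0 to 2 with a library left out) and 2 with ethylene (4 with no filter, 4 with the contrast's groups only, 1 to 3 with a library left out). On loss of RHD6/RSL1 it was 4 in rhd6rsl1 (3 to 5) and 4 in the quadruple mutant (2 to 5). For the difference of responses it was 0 in the Col-0 pair (3 with no filter, 0 to 2), 1 in the rhd6rsl1 pair (0 by DESeq2, 3 with no filter, 2 with the contrast's groups only, 0 to 2) and 2 averaged (2 to 3). Without Col-0_untreated replicate 2, F6'H1 with ethylene in Col-0 turned to 0.47 (adjusted p = 0.0493 by edgeR), against −0.43 without replicate 1. Where no value above shows a cause, the cause was not tested.

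The list counts under these alternatives were chosen after seeing the data. With a library left out, iron genes called with ethylene were 5 to 11 higher and 1 to 4 lower (4 lower without both photosynthesis-high libraries). On loss of RHD6/RSL1 they were 12 to 16 lower and 2 to 3 higher in rhd6rsl1, and 4 to 11 lower (13 with no filter) and 1 higher in the quadruple mutant. For the averaged difference of responses they were 1 to 6 higher (1 by DESeq2, 6 with no filter) and 0 to 3 lower (2 by DESeq2, 3 with no filter, 2 without both photosynthesis-high libraries). Phenylpropanoid genes with ethylene were 4 to 5 higher and 3 to 6 lower.

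Over all loci, calls were 6609 for ethylene in Col-0 (4389 to 7301 with a library left out), 139 in ein3eil1 (16 to 291; DESeq2 523, no filter 958, without both photosynthesis-high libraries 263, the contrast's groups only 1279) and 5323 in the quadruple mutant (2745 to 6075; 3525 without both photosynthesis-high libraries, 2602 with the contrast's groups only). They were 1760 averaged without EIN3/EIL1 (209 to 4145; no filter 3056, the contrast's groups only 1023), 1255 for untreated ein3eil1 against Col-0 (514 to 1473; 1899 and 2134 under those settings), 965 for the untreated quadruple mutant against rhd6rsl1 (463 to 3357; 2084 and 604), 5030 for the quadruple mutant against ein3eil1 (3203 to 5261) and 2727 for the difference in the Col-0 pair (1769 to 3203).

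Replicate numbers did not pair the samples: of 28 pairs of groups, 2 had replicate deviations correlated above 0.1. With the replicate block, 3 of the 7 were called for ethylene in Col-0, 2 in rhd6rsl1 and 5 in rhd6rsl1 against Col-0. MYB72 in Col-0 and PDR9 in rhd6rsl1 both had an adjusted p of 0.054 with ethylene under the block. With 2 libraries a group, MYB72 rested on 44 to 290 reads per library.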
